A study of Mus musculus with 9 samples.

Results

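The genes described here are 10 that handle iron in mouse liver: Hamp, Hamp2, Tfr2, Tfrc, Hfe, Slc40a1, Fth1, Ftl1, Bmp6 and Bmp2. They were chosen by name, for their roles in iron control, out of 26388 genes in the deposited tables. Earlier results of these data were known when they were chosen. Their transcripts were followed across 9 livers, 3 injection groups, and the hepatocyte, macrophage and endothelial barcodes within those livers.

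The livers came from male C57BL/6 mice aged 8 weeks. Mice 1, 4 and 7 received phosphate-buffered saline (PBS). Mice 2, 5 and 8 received AAVrh.10Null, a vector of the rh.10 serotype of adeno-associated virus whose label names no transgene. Mice 3, 6 and 9 received AAVrh.10mCherry, which carries a red fluorescent reporter, and all injections were intravenous. Dose, promoter and the time from injection to collection are not given in the sources used here. Single cells were captured by Drop-seq, a droplet method that tags each cell with a barcode and each captured transcript with a unique molecular identifier (UMI).

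Hepcidin, the peptide encoded by Hamp, is made by hepatocytes and lowers the release of iron into blood by blocking and degrading ferroportin, the iron exporter encoded by Slc40a1. Hepatocytes read body iron through transferrin receptor 2 (Tfr2) and the MHC-like protein HFE. They also read BMP2 and BMP6, ligands secreted mainly by the sinusoidal endothelium, which drive hepcidin transcription through SMAD proteins, and interleukin 6 acts on the same gene through STAT3. Kupffer cells, the resident liver macrophages, recycle iron from red cells and export it through ferroportin, while ferritin, built from the heavy chain Fth1 and the light chain Ftl1, stores iron inside cells.

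Sequences upstream of the RefSeq starts of the 2 hepcidin genes are shown because both genes were counted separately and are close copies. Hamp lies at chr7:30942368-30944032 and Hamp2 at chr7:30922372-30924681, both on the minus strand of GRCm38 (the same assembly as mm10), with 17686 bases between them. The runs below hold the 150 bases before each RefSeq start site (GRCm38.p6, 5′ to 3′), at chr7:30944030-30944179 for Hamp and chr7:30924182-30924331 for Hamp2. The gene intervals above are those of the GENCODE annotation, which differs from RefSeq here. By GENCODE the Hamp2 run lies inside the gene, while the Hamp run overlaps its gene only at the 3′ end of the run. Capitals mark the core of the BMP-responsive element GGCGCC in Hamp, the 6 bases aligned with it in Hamp2, and the STAT-type motif TTCNNNGAA in both.
Hamp: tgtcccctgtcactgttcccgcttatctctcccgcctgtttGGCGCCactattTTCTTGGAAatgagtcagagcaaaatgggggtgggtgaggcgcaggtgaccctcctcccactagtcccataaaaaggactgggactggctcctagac
Hamp2: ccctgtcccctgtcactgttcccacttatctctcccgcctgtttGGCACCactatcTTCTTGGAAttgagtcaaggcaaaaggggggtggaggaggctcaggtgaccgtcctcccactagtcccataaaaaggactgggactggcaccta
Of 147 aligned bases, 135 (91.8%) were identical and 12 differed. One of those, G45A (counted from 1 at the 5′ end of the Hamp run, with the Hamp base first), falls inside the capitalised BMP element. Searched on both strands over the 250 bases before the start, GGCGCC was found in 9.59% and TTCNNNGAA in 7.02% of 32851 RefSeq windows; the letters of these motifs do not overlap in either gene. Of the 10 iron genes, 8 had such windows (not Slc40a1 and Bmp2); GGCGCC occurred in those of Hamp and Tfrc, and TTCNNNGAA in those of Hamp and Hamp2. A match is a description of letters and no measurement of binding.

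Another set of sequences is shown because 4 of the genes carry iron-responsive elements, hairpins in their messenger RNA through which iron regulatory proteins control stability or translation. Transcript counts can therefore move with iron for Tfrc, while Slc40a1, Fth1 and Ftl1 are also controlled at translation, which UMIs do not measure. Each element below has 27 bases of the GENCODE transcript, and capitals mark the loop. The Tfrc element stands in the 3′ untranslated region (UTR) at chr16:32631220-32631246 (plus strand), and is the first of 4 found there. The others stand in 5′ UTRs, for Slc40a1 at chr1:45925466-45925492 (minus strand), for Fth1 at chr19:9982733-9982759 (plus strand) and for Ftl1 at chr7:45459780-45459806 (minus strand).
Tfrc: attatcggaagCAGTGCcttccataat
Slc40a1: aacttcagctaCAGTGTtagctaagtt
Fth1: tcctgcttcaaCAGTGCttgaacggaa
Ftl1: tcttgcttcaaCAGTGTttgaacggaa

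Of 48000 deposited barcodes, 44898 had at least 200 genes and were used, with 291338 to 11220147 UMIs per liver. Mouse 7, a PBS liver, kept 550 of 3600 barcodes and was by far the shallowest. Mice 2 and 8, both AAVrh.10Null, had 7 and 20 barcodes that end in an undetermined base, against 174 to 1735 in the other 7 libraries, so this difference between libraries partly follows that group. Mice 2, 7 and 8 also had the highest levels of Malat1, a nuclear RNA, at 23010, 15944 and 15016 UMIs per 1000000 (CPM), against 2769 to 10265 CPM elsewhere. The 36 pairs of libraries shared 0 to 6 barcodes each. The hepatocyte markers were all detected in each group, and mCherry stood at 7979, 6150 and 1797 CPM in mice 3, 6 and 9 and at 0 to 24.3 CPM in the other livers.

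Levels below are in CPM, the UMIs of a gene divided by all UMIs of its liver over the barcodes used. A UMI counts a molecule, so these levels are not divided by transcript length. In such sums, fewer cells of a type and less RNA per cell cannot be told apart.

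Hamp, the main hepcidin gene, was present in every liver and differed 4.62-fold between the lowest and the highest. PBS livers held 495, 426 and 735 CPM (mice 1, 4 and 7), and AAVrh.10Null livers 622, 201 and 735 CPM (mice 2, 5 and 8). AAVrh.10mCherry livers held 560, 931 and 696 CPM (mice 3, 6 and 9). Mouse 5 was the lowest and mouse 6 the highest, mice 7 and 8 were level although injected differently, and all 3 groups overlapped.

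Hamp2, the neighbouring hepcidin gene, varied far more, from 20.1 to 460 CPM, a 22.9-fold range. PBS livers held 87.6, 81.2 and 446 CPM, AAVrh.10Null livers 47.3, 20.1 and 31.8 CPM, and AAVrh.10mCherry livers 74.5, 460 and 143 CPM. Mice 6 and 7 stood well above the other 7, and the 3 AAVrh.10Null livers lay below all others. Hamp2 made up 15.03%, 16.03% and 37.8% of the UMIs of both genes in PBS, 7.06%, 9.06% and 4.15% in AAVrh.10Null, and 11.7%, 33.1% and 17.03% in AAVrh.10mCherry. How reads that match both genes were assigned is not given in the sources used here, so the split between these close copies is uncertain.

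**Figure D1:**
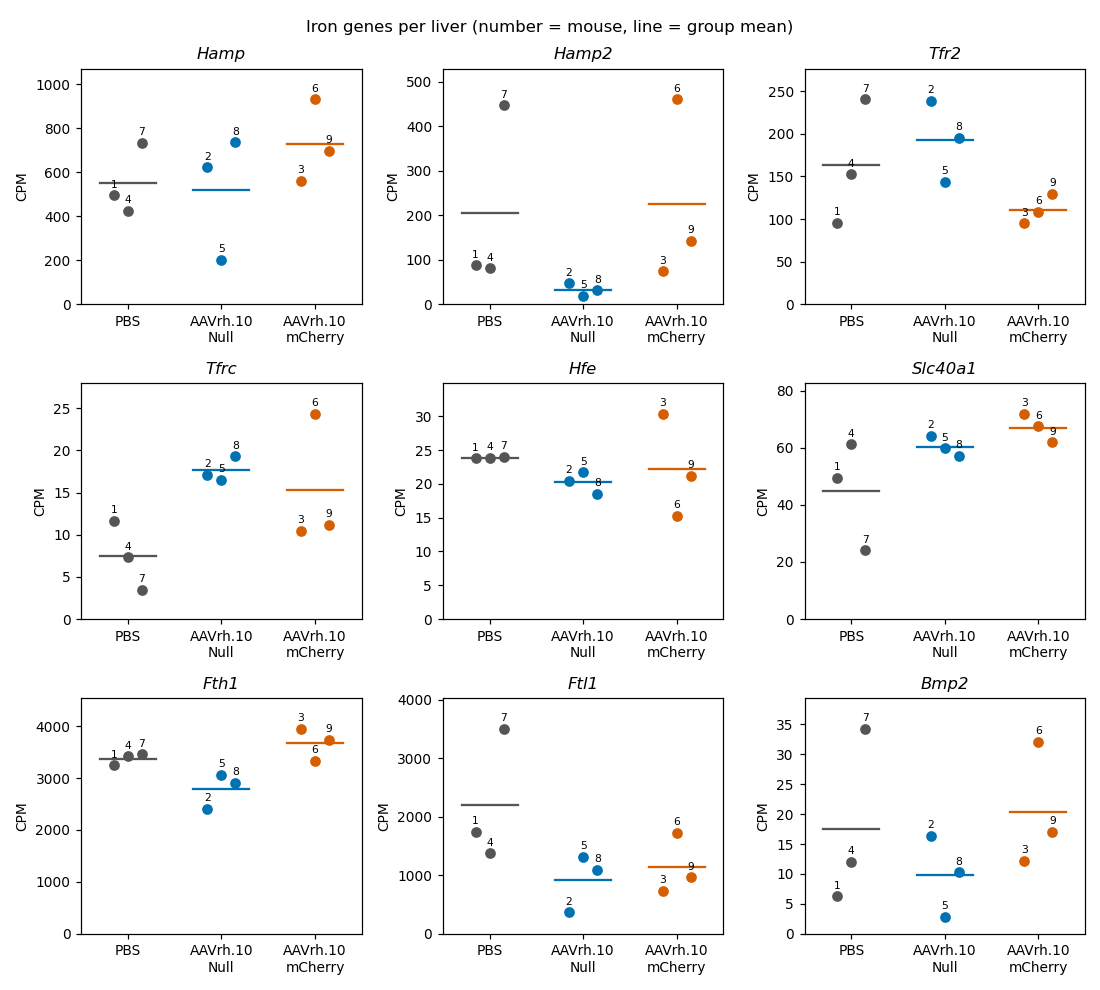
Level of 9 iron genes in whole-liver sums: y axis, CPM on a linear scale from 0; x axis, injection group; each point is 1 liver with its mouse number, and each line a group mean. Hamp2 ran from 20.1 CPM in mouse 5 to 460 CPM in mouse 6, while Fth1 stayed between 2408 and 3956 CPM.

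Of the iron sensors, Tfr2 stood at 95.6, 152 and 240 CPM in PBS, 238, 144 and 195 CPM in AAVrh.10Null, and 95.1, 108 and 129 CPM in AAVrh.10mCherry. The AAVrh.10mCherry livers lay below all 3 AAVrh.10Null livers, and PBS overlapped both. Tfrc, the receptor that takes up transferrin-bound iron in most cells, was low throughout, at 11.7, 7.31 and 3.43 CPM in PBS, 17.1, 16.5 and 19.3 CPM in AAVrh.10Null, and 10.5, 24.3 and 11.2 CPM in AAVrh.10mCherry. The PBS value of mouse 7 rests on 1 UMI, and PBS lay below AAVrh.10Null without overlap. Hfe, which binds both transferrin receptors, kept to 15.2 to 30.3 CPM in all 9 livers.

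Ferroportin (Slc40a1) ranged from 24.0 to 71.8 CPM. Its lowest liver, mouse 7, had 7 UMIs, and the other 8 lay between 49.4 and 71.8 CPM. The 3 AAVrh.10mCherry livers (71.8, 67.5 and 61.9 CPM) lay above the 3 PBS livers (49.4, 61.1 and 24.0 CPM) by a narrow margin.

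Of the ferritin genes, heavy chain Fth1 was the steadiest member, at 3246, 3421 and 3456 CPM in PBS, 2408, 3058 and 2909 CPM in AAVrh.10Null, and 3956, 3334 and 3735 CPM in AAVrh.10mCherry. The light chain Ftl1 stood at 1743, 1377 and 3511 CPM in PBS, 367, 1311 and 1089 CPM in AAVrh.10Null, and 732, 1721 and 967 CPM in AAVrh.10mCherry. The AAVrh.10Null livers lay below the PBS livers for both chains. The ratio of Ftl1 to Fth1 UMIs ran from 0.152 in mouse 2 to 1.02 in mouse 7. Processed copies of Ftl1 that were counted separately held at most 30 UMIs each in any liver, against 1023 to 19562 for Ftl1 itself.

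**Figure D2:**
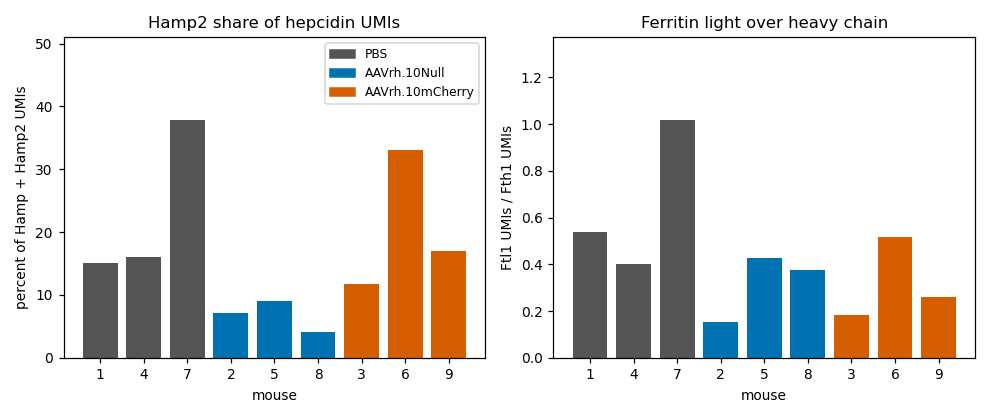
Left, Hamp2 UMIs as a percent of Hamp and Hamp2 UMIs; right, Ftl1 UMIs divided by Fth1 UMIs; each bar is 1 liver on an axis from 0, labelled by mouse and coloured by group. Mice 6 and 7 had Hamp2 shares of 33.1% and 37.8%, and mouse 7 also had the highest ferritin ratio, 1.02.

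Of the BMP ligands, Bmp2 stood at 6.24, 12.002 and 34.3 CPM in PBS, 16.4, 2.83 and 10.3 CPM in AAVrh.10Null, and 12.1, 32.1 and 17.01 CPM in AAVrh.10mCherry, with all groups overlapping. Bmp6, the other main ligand, had 8 UMIs in all livers together and 0 in 4 of them. At this depth a count of 0 allows up to 10.3 CPM in mouse 7 and up to 0.506, 0.563 and 0.709 CPM in mice 3, 4 and 5, for counting error only.

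To place these ranges, the highest level was divided by the lowest for the 2270 genes with a mean of at least 50 CPM, and the median of that ratio was 2.06. Hamp2 stood at percentile 98.8 of these genes, Ftl1 (9.58-fold) at 97.2, Hamp at 91.7, Slc40a1 (2.99-fold) at 79.6, Tfr2 (2.53-fold) at 69.1 and Fth1 (1.64-fold) at 22.5. The genes whose levels followed each member most closely over the 9 livers (Pearson's r of log2(CPM + 1)) were Wasl for Hamp (0.85), Hmgn1 for Hamp2 (0.98) and Lrp1 for Tfr2 (0.95). For Slc40a1, Fth1 and Ftl1 they were 1700020I14Rik (0.97), Pitpnb (0.94) and Psmb5 (0.94). These are descriptions over 9 libraries that share depth and handling differences, in which mouse 7 often lies at an end.

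The question put to the groups was whether either vector changed the transcripts of iron handling. Of the 10 genes, 9 entered the test, and 0 of 9 passed an adjusted p of 0.05 in any of the 3 comparisons (edgeR's quasi-likelihood test, Benjamini-Hochberg over 11321 genes). Over all genes, 0.00883% passed between AAVrh.10Null and PBS, 0% between AAVrh.10mCherry and PBS, and 0.0265% between AAVrh.10mCherry and AAVrh.10Null. Among the 9, 3, 1 and 2 had an unadjusted p under 0.05, against 1458, 744 and 826 of all genes. DESeq2 and limma-voom also called 0 of the 9, while calling 58, 2 and 3 (DESeq2) and 0, 0 and 0 (limma-voom) of all genes.

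Of the 9 genes, Hamp2 had the largest fitted difference between AAVrh.10Null and PBS, at −2.52 on the log2 scale for AAVrh.10Null minus PBS (SE 0.72, adjusted p = 0.200 by edgeR). Against AAVrh.10mCherry the Hamp2 difference was 2.65 for AAVrh.10mCherry minus AAVrh.10Null (SE 0.71, adjusted p = 0.578 by edgeR). Without mouse 7 the first was −1.40 and without mouse 6 the second was 1.63, neither past the threshold. With no filter on low counts both passed, at −2.43 and 2.62 (edgeR adjusted p = 6.28e-11 and 9.91e-14). Left without mice 2 and 8, AAVrh.10Null is mouse 5 alone, and the 2 values were −3.12 and 3.30, with that liver assumed to vary like the others.

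Hamp itself differed by −0.09 (SE 0.40) for AAVrh.10Null minus PBS, by 0.28 (SE 0.40) for AAVrh.10mCherry minus PBS, and by 0.37 (SE 0.40) for AAVrh.10mCherry minus AAVrh.10Null. The edgeR adjusted p-values were 0.955, 0.863 and 0.849. Without mouse 5 the first turned to 0.32 and the third to −0.03, and without mouse 7 the first turned to 0.13.

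Ftl1 differed by −1.23 (SE 0.49, edgeR adjusted p = 0.321) for AAVrh.10Null minus PBS and by −1.08 (SE 0.49, adjusted p = 0.717) for AAVrh.10mCherry minus PBS. Without mouse 7 these were −0.77 and −0.63. The first was −0.82 without mouse 2 and −0.65 without mice 2 and 8. With no filter on low counts the first was −1.17 and passed (edgeR adjusted p = 0.0327). Tfrc differed by 0.91 (SE 0.36, adjusted p = 0.323) for AAVrh.10Null minus PBS. Tfr2 differed by −0.90 (SE 0.30, adjusted p = 0.603) for AAVrh.10mCherry minus AAVrh.10Null, and this was −0.53 without mice 2 and 8.

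Levels of the 2 groups did not overlap for 5 of the 9 genes between AAVrh.10Null and PBS: Tfrc was higher, and Hamp2, Hfe, Fth1 and Ftl1 were lower. Over all genes tested, 19.2% did not overlap in that comparison, 12.3% as higher and 6.87% as lower. The Hfe level of PBS mouse 7 rests on 7 UMIs (24.0 CPM, 95% exact Poisson interval 9.66 to 49.5). One gene, Slc40a1, did not overlap between AAVrh.10mCherry and PBS, as higher, where 16.8% of all genes did not (14.4% higher and 2.37% lower). Between AAVrh.10mCherry and AAVrh.10Null, Hamp2 and Fth1 were higher and Tfr2 lower without overlap, where 16.6% of all genes did not overlap (12% higher and 4.55% lower). Mice 2 and 8 are 2 of the 3 AAVrh.10Null livers. While they are included, injection and the difference between libraries in barcodes with an undetermined base cannot be told apart.

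The same fit on hepatocyte barcodes alone gave 0 of the 9 genes in each comparison, where 0.00931%, 0% and 0.0186% of 10739 genes passed. Hamp2 differed there by −2.54 for AAVrh.10Null minus PBS (edgeR adjusted p = 0.162) and by 2.70 for AAVrh.10mCherry minus AAVrh.10Null (adjusted p = 0.509). Unadjusted, 1541, 811 and 855 of all genes had p under 0.05.

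A wider list of 61 genes around iron was read in the same fit, covering BMP ligands, sensing, receptors and SMADs, BMP targets, the interleukin 6 branch, transport, storage, haem and mitochondrial iron. Of 55 tested, 0 passed in any comparison, with 10, 11 and 5 at an unadjusted p under 0.05, by edgeR. Over all 11321 genes tested, 1458, 744 and 826 had such a p. Their median log2 differences were 0.15 for AAVrh.10Null minus PBS, 0.04 for AAVrh.10mCherry minus PBS and −0.08 for AAVrh.10mCherry minus AAVrh.10Null, against −0.01, 0.02 and 5.63e-05 over all genes.

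Closest to passing in both comparisons with PBS were Slc39a14, an importer of iron not bound to transferrin, and Alas1, the first enzyme of haem synthesis. Slc39a14 stood at 34.2 ± 9.88 CPM in PBS, 101 ± 9.17 in AAVrh.10Null and 76.6 ± 23.2 in AAVrh.10mCherry (SD, n = 3 each). Its log2 differences from PBS were 1.42 (SE 0.27, edgeR adjusted p = 0.148) and 0.92 (SE 0.26, adjusted p = 0.717). Every vector liver lay above every PBS liver for Slc39a14. Of all genes tested, 12.3% lay higher without overlap in AAVrh.10Null than in PBS, and 14.4% in AAVrh.10mCherry than in PBS. The share that did so in both is not given here. Alas1 stood at 55.2 ± 17.9, 247 ± 131 and 250 ± 129 CPM in the same order, with log2 differences of 2.05 (SE 0.47, edgeR adjusted p = 0.158) and 1.97 (SE 0.47, adjusted p = 0.717). Between the vectors, the smallest p-values belonged to the BMP receptor subunit Acvr2b (−1.41, SE 0.39, adjusted p = 0.578) and Ncoa4, which delivers ferritin for breakdown (1.14, SE 0.41, adjusted p = 0.631).

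Barcodes were classed by marker genes, with none of the iron genes among the markers, and at least 3 different markers were required. This gave 42340 hepatocyte barcodes (497 to 6996 per mouse), 743 endothelial (24 to 163) and 249 macrophage barcodes (3 to 51). The 3 macrophage barcodes of mouse 7 were left out of comparisons. Median UMIs per barcode were 994, 1001 and 1179. Summed macrophage markers stood at 18861 CPM in macrophage barcodes and 49.9 CPM in hepatocyte barcodes, and summed endothelial markers at 11402 CPM in endothelial barcodes and 75.7 CPM in hepatocyte barcodes. Hepatocyte transcripts were present everywhere: albumin (Alb) stood at 39835 CPM in hepatocyte, 26216 CPM in endothelial, 23484 CPM in macrophage and 24601 CPM in T/NK barcodes.

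Ferroportin was concentrated in macrophage barcodes. Slc40a1 held 752 CPM there against 54.8 CPM in hepatocyte barcodes of the same 8 mice, a 13.7-fold difference. By mouse it stood at 497 and 733 CPM in PBS (mice 1 and 4), 790, 824 and 609 CPM in AAVrh.10Null, and 1042, 1158 and 863 CPM in AAVrh.10mCherry, all above every hepatocyte value (26.0 to 62.9 CPM). The fitted log2 difference was 3.66 (SE 0.15, edgeR adjusted p = 1.50e-33, mouse as a block, higher in 8 of 8 mice). Against endothelial barcodes it was 2.94 (SE 0.19, edgeR adjusted p = 3.60e-22, 8 of 8 mice).

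Endothelial barcodes held Slc40a1 at 99.3 CPM, 0.72 above hepatocyte barcodes on the log2 scale (SE 0.19, edgeR adjusted p = 0.000891), and were higher in 7 of 9 mice. This call was lost with 2 markers in place of 3 (0.37, adjusted p = 0.0669) and with no filter on low counts (0.07, adjusted p = 0.918). Because hepatocyte barcodes are so many, they held 85.1% of all Slc40a1 UMIs and macrophage barcodes 8.13%. Thinned to 500 UMIs, 26.0% of macrophage barcodes had a Slc40a1 UMI, 4.72% of endothelial, 2.68% of hepatocyte and 0% of 190 T/NK barcodes, which allows up to 1.58%; unthinned, the shares were 47.4%, 10.5%, 5.86% and 1.03%.

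Bmp2 was concentrated in endothelial barcodes, at 553 CPM against 3.51 CPM in hepatocyte barcodes, a 158-fold difference. By mouse it stood at 212, 467 and 1035 CPM in PBS, 745, 159 and 687 CPM in AAVrh.10Null, and 566, 822 and 562 CPM in AAVrh.10mCherry. The lowest endothelial value (mouse 5, from 5 UMIs) exceeded the highest hepatocyte value, 7.09 CPM. The fitted log2 difference was 7.07 (SE 0.22, edgeR adjusted p = 2.35e-41, higher in 9 of 9 mice).

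Endothelial barcodes, 743 of 44898, held 68.6% of all Bmp2 UMIs. After thinning, 26.9% of them had a Bmp2 UMI, against 0.163% of hepatocyte, 0.813% of macrophage and 0% of T/NK barcodes; unthinned, the shares were 41.9%, 0.392%, 2.01% and 0%. The share of T/NK barcodes, 0 of 195 before thinning, allows up to 1.54% for counting error only. In macrophage barcodes Bmp2 differed by −4.85 on the log2 scale from endothelial barcodes (SE 0.41, edgeR adjusted p = 1.50e-16, 8 of 8 mice). Its difference between macrophage and hepatocyte barcodes, 2.21 (SE 0.82, adjusted p = 0.0171), rests on 6 UMIs in mice 4 and 9, and was 0.95 (adjusted p = 0.5264) without mouse 4 and 1.88 (adjusted p = 0.0965) without mouse 9.

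Of the 8 Bmp6 UMIs, 3 fell in endothelial barcodes, which gives 3.46 CPM (95% exact Poisson interval 0.714 to 10.1), against 0.101 CPM in hepatocyte barcodes (0.0327 to 0.235). These came from 2 of 9 mice.

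Ferritin levels were higher in macrophage than in hepatocyte barcodes, before and after scaling by TMM with the low-count filter. Fth1 stood at 4494 CPM in macrophage, 3284 CPM in hepatocyte and 2768 CPM in endothelial barcodes, and Ftl1 at 1640, 1201 and 1003 CPM (hepatocyte values over the 8 mice with macrophage sums). Between macrophage and hepatocyte barcodes of the same mice Fth1 was higher in 8 of 8 mice and Ftl1 in 7 of 8, with log2 differences of 0.32 (SE 0.10, edgeR adjusted p = 0.00337) and 0.41 (SE 0.11, adjusted p = 0.000836). The endothelial level lay below the hepatocyte level in 9 of 9 mice, with log2 differences of −0.42 for Fth1 (SE 0.09, edgeR adjusted p = 6.85e-05) and −0.41 for Ftl1 (SE 0.10, adjusted p = 0.000214). With TMM scaling and no filter on low counts the macrophage minus hepatocyte differences turned to −0.59 and −0.47. They then passed in the opposite direction (edgeR adjusted p = 4.43e-05 and 0.0101). Without the filter and scaled to totals alone, they were 0.47 and 0.58 (edgeR adjusted p = 7.45e-09 and 1.96e-07). Their direction without the filter therefore depends on the scaling. With no replicate block neither difference passed (0.31 and 0.075). Scaled to totals alone, the endothelial differences did not pass (−0.14 and −0.13).

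Hepcidin transcripts were found in hepatocyte, endothelial and macrophage barcodes, and the class ratios of Hamp lay near those of albumin. Hamp stood at 598 CPM in hepatocyte, 439 CPM in endothelial and 380 CPM in macrophage barcodes. The macrophage level was 0.636 times and the endothelial level 0.733 times the hepatocyte level in the same mice, and for albumin these ratios were 0.591 and 0.658. For Hamp2 they were 0.665 and 0.981, but the pooled endothelial level leans on mouse 6, with 46 of the 98 endothelial Hamp2 UMIs. In that mouse Hamp2 stood at 307 CPM in endothelial and 470 CPM in hepatocyte barcodes. By mouse, the endothelial Hamp2 level was lower than the hepatocyte level in 7 of 9. Hamp was lower by a log2 difference of −0.73 (SE 0.14, edgeR adjusted p = 5.13e-06) in macrophage and −0.65 (SE 0.11, adjusted p = 2.45e-07) in endothelial barcodes.

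Thinned to 500 UMIs, 26.2% of hepatocyte, 17.9% of endothelial, 15.9% of macrophage and 15.8% of T/NK barcodes had a Hamp UMI, and unthinned 46.5%, 35.3%, 37.3% and 37.9%. The macrophage and T/NK shares of Hamp lay close together. For Hamp2 the thinned shares were 5.57%, 4.58%, 4.07% and 6.84% in the same order. Whether these UMIs come from the cell itself or from hepatocyte transcripts was not tested, and outside hepatocyte barcodes they are not read as expression. Hepatocyte barcodes held 94.6% of all Hamp, 93.6% of all Hamp2 and 95.3% of all Tfr2 UMIs. The class levels were 115, 113 and 75.5 CPM for Hamp2 and 143, 99.3 and 116 CPM for Tfr2 (hepatocyte, endothelial, macrophage). Endothelial minus hepatocyte differences were −0.51 (SE 0.20, edgeR adjusted p = 0.0187) for Hamp2 and −0.60 (SE 0.17, adjusted p = 0.00186) for Tfr2, and scaled to totals alone neither passed (−0.22 and −0.33). The Hamp2 call was also lost with 2 markers (−0.32, edgeR adjusted p = 0.0652), with DESeq2 (−0.45, adjusted p = 0.125) and without mouse 4 (−0.43, edgeR adjusted p = 0.0632), and without mouse 6, 7 or 9 Hamp2 was not among the genes that passed the filter.

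**Figure D3:**
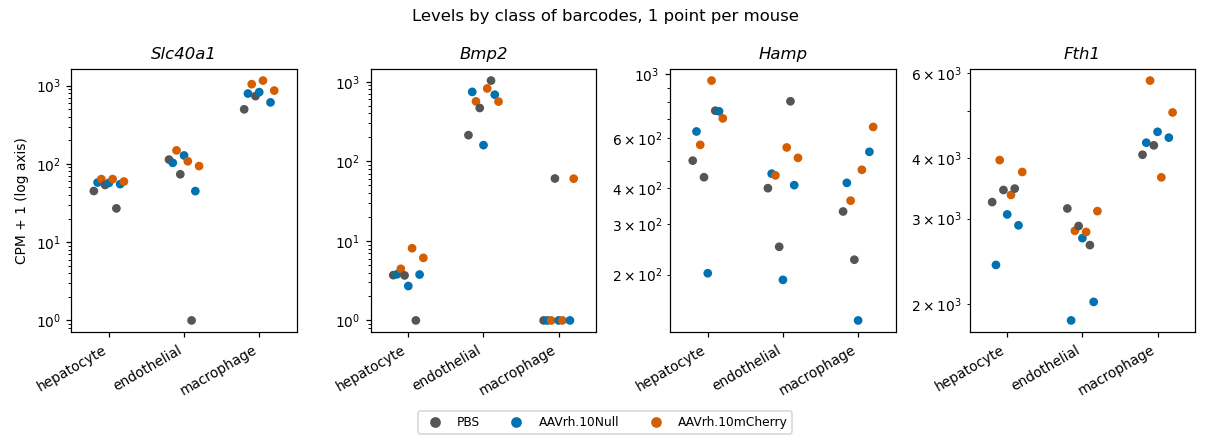
Levels of Slc40a1, Bmp2, Hamp and Fth1 by class of barcodes: y axis, CPM + 1 on a log axis; each point is 1 mouse, coloured by group (9 mice for hepatocyte and endothelial, 8 for macrophage). Macrophage values of Slc40a1 (497 to 1158 CPM) and endothelial values of Bmp2 (159 to 1035 CPM) lie above all other classes, while Hamp overlaps between classes.

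Tfrc and Hfe did not pass the filter on low counts in the class fit. Hfe stood at 63.9 CPM in macrophage barcodes (22 UMIs, 95% exact Poisson interval 40.0 to 96.7), 50.8 CPM in endothelial (44 UMIs, 36.9 to 68.2) and 21.0 CPM in hepatocyte barcodes (19.8 to 22.4). It was higher than in hepatocyte barcodes in 7 of 8 and 7 of 9 mice. Without the filter and scaled to totals, an alternative added after seeing the data, the Hfe differences from hepatocyte barcodes were 1.55 (SE 0.40, edgeR adjusted p = 0.00175) and 1.29 (SE 0.29, adjusted p = 0.000142). With TMM scaling and no filter they were 0.60 and 0.53 and did not pass. Tfrc stood at 29.0 CPM in macrophage (10 UMIs), 6.93 CPM in endothelial (6 UMIs) and 14.2 CPM in hepatocyte barcodes, and did not pass in either fit.

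Tfr2 differed by −0.48 for macrophage minus hepatocyte (SE 0.23, edgeR adjusted p = 0.0647) and did not pass. It did pass, as lower, with 2 markers (−0.62, edgeR adjusted p = 0.00510), with 4 markers (−0.80, adjusted p = 0.00924), with limma-voom (−0.36, adjusted p = 0.0483) and with no filter on low counts (−1.31, edgeR adjusted p = 1.68e-05).

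In all, 5 of the 7 genes tested passed between macrophage and hepatocyte barcodes (4 higher, 1 lower), where 60% of the 1753 genes tested did (27.2% higher, 32.9% lower). Between endothelial and hepatocyte barcodes 7 of 7 passed (2 higher, 5 lower), where 63.2% of all genes did (28.8% higher, 34.4% lower). Between macrophage and endothelial barcodes 4 of 7 passed (3 higher, 1 lower), where 21.4% did (10.3% higher, 11.1% lower). With such shares of all genes the first 2 counts say little. The third includes Slc40a1 and Bmp2, which the filter on low counts favoured as described below, so it is not read further. The largest differences were those of Slc40a1 in the first comparison and Bmp2 in the second. Bmp2 entered the test through its endothelial sums, as it held 3.51 CPM in hepatocyte and 17.4 CPM in macrophage barcodes. Hfe, at 21.0 to 63.9 CPM, did not enter, so the filter favoured a Bmp2 call and the counts that include it. The same limit holds for Slc40a1, whose 54.8 CPM in hepatocyte barcodes lies within the Hfe range. Its level was 99.3 CPM in endothelial and 752 CPM in macrophage barcodes. Without the filter and scaled to totals alone, these differences were 3.81 (SE 0.17) for Slc40a1 and 7.17 (SE 0.19) for Bmp2. Scaled to totals alone, the median over all genes moved from −0.09 to 0.21 (macrophage minus hepatocyte) and from −0.07 to 0.19 (endothelial minus hepatocyte). Of the wider list, 16 genes were tested: 4 rose and 5 fell in macrophage against hepatocyte barcodes, 4 rose and 7 fell in endothelial against hepatocyte barcodes, and 2 rose and 2 fell in macrophage against endothelial barcodes.

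Higher in endothelial than in hepatocyte barcodes were the BMP target Id3 (log2 difference 2.33, SE 0.16), the interleukin 6 signal transducer Il6st (3.25, SE 0.17), its kinase Jak1 (2.69, SE 0.13) and the iron chaperone Pcbp1 (0.48, SE 0.18). Their edgeR adjusted p-values were 5.30e-22, 3.00e-27, 1.59e-29 and 0.0142. Macrophage barcodes were higher than hepatocyte barcodes in Id3 (1.89, SE 0.21), the biliverdin reductase Blvrb (1.07, SE 0.19), Jak1 (0.74, SE 0.25) and Pcbp2 (0.45, SE 0.20), with adjusted p-values of 2.11e-12, 2.84e-06, 0.00936 and 0.0468. The list's secreted hepatocyte products were lower in both classes: transferrin (Trf, −0.76 in endothelial and −0.86 in macrophage barcodes), hemopexin (Hpx, −0.73 and −0.86), haptoglobin (Hp, −0.65 and −0.77) and ceruloplasmin (Cp, −0.65 and −0.80), each with an edgeR adjusted p of 2.24e-06 or less. Albumin differed by −0.79 and −1.04.

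Within hepatocytes, position along the lobule was read from 10 pericentral and 10 periportal genes, none of them an iron gene. Each mouse's barcodes were divided into 3 equal parts by the pericentral share, and 31903 of the 42340 hepatocyte barcodes had the 10 zonal UMIs needed. Mouse 7 had too few, which left 8 mice. Between 43.0% and 64.3% of scored barcodes in these mice lay within 5 percentage points of a limit, so neighbouring zones mix.

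Hamp, Fth1 and Ftl1 were higher in pericentral than in periportal barcodes in 8 of 8 mice, and Tfr2 and Slc40a1 were lower in 8 of 8. Hamp stood at 462, 599, 537, 396, 191, 800, 640 and 628 CPM in periportal barcodes (mice 1 to 6, 8 and 9) and at 504, 706, 585, 464, 202, 1073, 831 and 711 CPM in pericentral ones. The difference between mice was larger than that between zones, but each mouse moved up. Means were 532 ± 184 and 635 ± 261 CPM (SD, n = 8), a log2 difference of 0.22 ± 0.12 (SD, exact two-sided sign-flip permutation p = 0.00781, the smallest 8 mice can give; adjusted p = 0.0469 over 4428 genes).

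Transferrin receptor 2 went the other way, from 176 ± 64.3 CPM in periportal to 123 ± 41.9 CPM in pericentral barcodes, a log2 difference of −0.51 ± 0.26 (SD, n = 8; exact permutation, adjusted p = 0.0469). Slc40a1 went from 69.3 ± 9.56 to 47.0 ± 6.75 CPM (−0.55 ± 0.12, same adjusted p). Fth1 rose from 3060 to 3436 CPM (0.17 ± 0.07) and Ftl1 from 1120 to 1230 CPM (0.14 ± 0.07), with the same adjusted p. Hamp2 (0.25 ± 0.40, 7 of 8 mice, adjusted p = 0.282) and Hfe (0.24 ± 0.43, adjusted p = 0.353) did not pass.

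So 5 of the 7 genes tested passed between these zones, 3 as higher and 2 as lower, where 16.6% of all genes did (5.96% higher, 10.7% lower). Every one of these calls sits at the smallest p the design allows, and leaving out any of the 8 mice raised the adjusted p past 0.05 without changing a direction. Requiring 30 zonal UMIs ended these calls (adjusted p = 0.471), as did zones set over all mice pooled (adjusted p = 0.0601), with directions kept. A mouse needed at least 50 barcodes in each zone, and how many mice met this with 30 zonal UMIs is not given here. Fewer mice raise the smallest p that the test can give, so nothing is concluded from the calls lost in that setting. With 30 zonal UMIs the log2 differences were 0.47 for Hamp, −0.62 for Tfr2, −0.80 for Slc40a1, 0.23 for Fth1 and 0.13 for Ftl1, and with pooled zones 0.27, −0.60, −0.60, 0.18 and 0.15. Ftl1 also lost its call when the pericentral gene Cyp2e1 was left out of the score (0.11, exact sign-flip test, adjusted p = 0.0696).

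Summed macrophage markers stood at 45.6 ± 23.2 CPM in periportal and 53.5 ± 24.8 CPM in pericentral hepatocyte barcodes (SD, n = 8). Hepatocyte barcodes could hold at most 1 macrophage marker, which caps these sums. Whether macrophage transcripts add to the Slc40a1 difference was not tested. Median UMIs were 1172 and 1109, and the mitochondrial share was 9.23% and 8.98%. The middle zone lay near the pericentral one for Hamp (642 ± 262 CPM, SD, n = 8; middle minus pericentral 0.02, exact permutation, adjusted p = 0.940), and 0 of the 7 genes passed against either neighbour. For middle against periportal, 0% of all genes passed by the exact test: Hamp, Tfr2, Slc40a1 and Fth1 reached the smallest p, with an adjusted p of 0.0550, and differed in one direction in 8 of 8 mice.

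**Figure D4:**
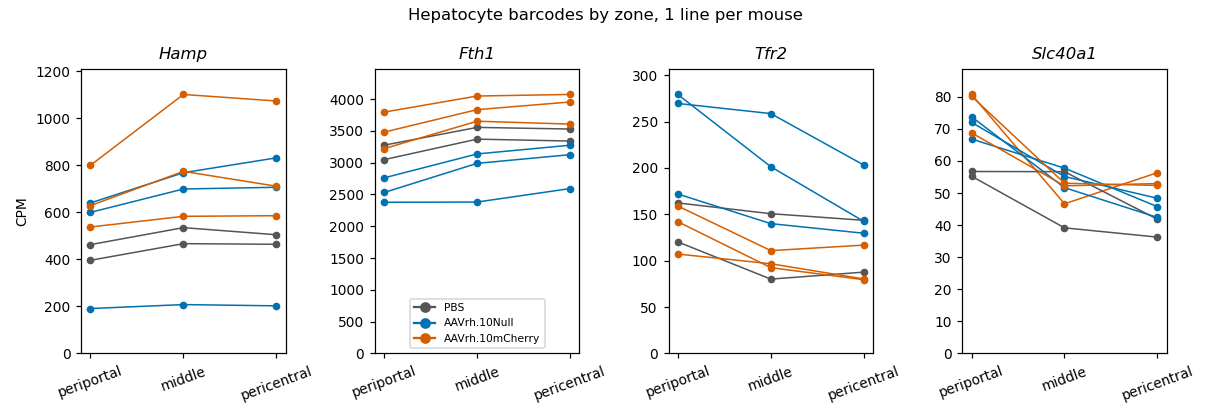
Hamp, Fth1, Tfr2 and Slc40a1 in hepatocyte barcodes of 3 zones: y axis, CPM from 0; each line is 1 of 8 mice, coloured by group. Each line of Hamp and Fth1 ends higher in the pericentral zone than it starts in the periportal zone, and each line of Tfr2 and Slc40a1 ends lower.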

How the data were processed

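Drop-seq libraries from 9 mouse livers were sequenced on a HiSeq 2500, per the labels' protocols. The authors deposited counts of UMIs per gene and barcode for each mouse; bcl2fastq 2.19, mm10 and Seurat stand in the submitters' processing notes and readme, and the aligner and annotation are not given in the sources used here. Replicates are separate mice. Counts of barcodes with at least 200 genes were summed per mouse, class or zone and tested with edgeR 4.0.16 (quasi-likelihood, TMM scaling, filterByExpr, Benjamini-Hochberg over all genes tested, threshold 0.05), with all 9 mice in 1 fit and, for classes, the mouse as a block (26 sums). Hepatocyte barcodes had at least 3 hepatocyte markers and at most 1 of any other list; macrophage and endothelial barcodes had 3 or more different markers and more than of any other non-parenchymal list. No doublet caller was run. Zones used exact sign-flip tests over mice on log2(CPM + 1) for genes with a mean of at least 20 CPM, adjusted over these genes in place of the members and pairs first planned. DESeq2 1.42.0 and limma 3.58.1 were alternatives; fits were tested on simulated data. The 10 genes are always named; of the wider list, up to 4 genes called per comparison and direction, or else the 2 with the smallest p; likeness gives the closest gene of 3. The members and lists were chosen with earlier results of these data known. Intervals and floors (3 UMIs) cover counting error only. UMI totals of 291338 to 11220147 per liver set the precision.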

Additional observations from a re-analysis of the deposited data

Results flagged for a closer look

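Of 42 sets of per-mouse differences screened, 5 had a mouse far from the others, where chance flags about 1 set in 20. All are log2 differences of CPM + 1, and 4 of the 5 involve a sum with 0 UMIs of the gene. For Hamp2, endothelial minus hepatocyte was −4.42 in mouse 5, which had 0 endothelial UMIs of the gene, and macrophage minus endothelial was −5.96 in mouse 2, with 0 macrophage UMIs. For Slc40a1, endothelial minus hepatocyte was −4.75 in mouse 7, with 0 UMIs in 24 endothelial barcodes. For Bmp2, endothelial minus hepatocyte was 10.02 in mouse 7, which had 9 endothelial and 0 hepatocyte UMIs. For Hamp2, middle minus periportal hepatocyte barcodes differed by 1.12 in mouse 8.

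Fth1 between middle and pericentral hepatocyte barcodes had opposite signs in 2 groups, with a mean log2 difference of 0.012 in PBS (2 mice) and −0.083 in AAVrh.10Null (3 mice). This difference between groups was not tested.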

How the results depend on the processing

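No paired analysis was possible for the injection groups because their labels share no replicate numbers; the class comparisons keep the mouse as a block, and with no replicate block 2 genes passed between macrophage and hepatocyte barcodes and 4 between endothelial and hepatocyte barcodes (Hamp2 macrophage minus endothelial then −0.50). With no filter on low counts, 2 genes (Hamp2 and Ftl1) passed for AAVrh.10Null minus PBS and 1 (Hamp2) for AAVrh.10mCherry minus AAVrh.10Null, in all and in hepatocyte barcodes alike; the cause was not tested. That setting, with TMM scaling kept, also turned Fth1 (−0.59) and Ftl1 (−0.47) for macrophage minus hepatocyte, and Hamp2 (−0.16) and Tfr2 (−0.031) for macrophage minus endothelial. Scaled to totals alone, 3 genes passed for endothelial minus hepatocyte. The shares of all genes that passed without the block, without the filter or scaled to totals alone are not given here. These counts of iron genes are therefore not read further. Without mice 2 and 8, Tfr2 for AAVrh.10Null minus PBS was −0.046 and Ftl1 for AAVrh.10mCherry minus AAVrh.10Null −0.37. With no filter on barcodes, Hamp and Hamp2 for AAVrh.10mCherry minus PBS were −0.13 and −0.58. With 2 markers, Hamp macrophage minus endothelial was 0.20 and Tfr2 −0.022, and with 4 markers Tfr2 was −0.17.

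Leaving out 1 mouse at a time, Hamp ranged from −0.47 to 0.32 for AAVrh.10Null minus PBS (hepatocyte barcodes −0.51 to 0.29) and from −0.027 to 0.76 for AAVrh.10mCherry minus AAVrh.10Null (hepatocyte barcodes −0.0063 to 0.79). Hamp2 for AAVrh.10mCherry minus PBS ranged from −0.85 to 1.22 (hepatocyte barcodes −0.88 to 1.25), and Ftl1 for AAVrh.10mCherry minus AAVrh.10Null from −0.25 to 0.47. For macrophage minus endothelial, Hamp ranged from −0.17 to 0.043 and Hamp2 from −0.078 to 0.27. Hamp by zone ranged from 0.19 to 0.24; it was 0.27 with zones set over all mice pooled and 0.47 with at least 30 zonal UMIs. Hamp for middle minus pericentral was −0.023 with pooled zones and −0.060 without Cyp2e1, and Hfe for middle minus periportal −0.82 with 30 zonal UMIs. Depth limits Bmp6, Tfrc and Hfe, and the 249 macrophage barcodes.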
